A study of Drosophila melanogaster with 4 samples.

Results

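The replication-dependent histone genes of Drosophila melanogaster lie in a tandem array on chromosome arm 2L. At this array, the deposited peak list from immunoprecipitation of the tagged Hox protein Deformed (Dfd) held 16 of its 7683 peaks. They were taken by position: every peak of 2L whose midpoint lay from base 21415000 to base 21545000 of FlyBase release 5, at any score. The window was selected on the measured widths and scores of these peaks in the same list. Its widths, scores and coverage are therefore a description, and no test was made of them.

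Histones are the proteins around which nuclear DNA is wound. His2A, His2B, His3 and His4 form the core of the nucleosome, and His1, the linker histone, binds the DNA between nucleosomes. In Drosophila the genes for all 5 proteins sit together in a repeat unit of roughly 5000 bp, and the unit is repeated head to tail. The genes are transcribed while DNA is copied, in a nuclear compartment called the histone locus body. Embryos make large amounts of histone during their rapid early divisions. The repeats of the array are close to identical in sequence, so short reads can align to many of them.

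The series mapped where Dfd, which specifies mouthpart segments, sits on the genome, using chromatin immunoprecipitation and sequencing (ChIP-seq). It had 2 immunoprecipitated libraries, made with a rabbit polyclonal antibody against green fluorescent protein (GFP), and 2 input libraries. All 4 came from the strain Dfd-GFP-Pacman, whose genotype is labelled PBac{y[+]-attP-3B}VK00037 and which carries a genomic Dfd transgene with GFP in place of the stop codon. The sex is labelled unknown and the stage 0 to 8 h, whereas the collection protocol in the labels names 8 to 16 h and a y; bw cn sp stock. The libraries are whole embryos, so the list does not separate cells that make Dfd from others. Each entry of the list has its 2 ends and a score, and none of these is given by library. Replicates, and immunoprecipitate and input, could therefore not be compared, and the read depth is unknown. The score was read as −log10 p of enrichment over the caller's background, a unit inferred from the values and not stated by the authors.

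The gene content was taken from the RefSeq gene table of release 6, a later assembly, and used for names, copies and neighbours only. That table has 23 copies of His1, 23 of His2B, 23 of His3, 22 of His4 and 20 of His2A, all 111 of them on 2L. Read in order along the arm, 19 sets ran His1, His2B, His2A, His4, His3. Another 3 sets lacked a His2A entry, and 4 genes lay outside these sets. Between the first and the last histone gene were 24 other entries, of which 20 were the small noncoding RNA sncRNA:430 and 4 were histone pseudogenes (His-Psi). No other gene interrupted the array. Further His-Psi entries stood directly outside it on both sides, followed by nrv3, which encodes a subunit of the sodium pump, on one side and Lamp1, which encodes a lysosomal membrane protein, on the other. The peaks are on release 5, so no peak was assigned to a single copy. Because the repeats share sequence, the values of single peaks are uncertain as values of single repeats. How the authors treated reads with several alignments is not given in the sources used here, and its part in the results was not tested.

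The peaks lay close together, in 2 blocks. From the first base of the first peak to the last base of the last, the 16 peaks spanned 127.3 kb, and 114.7 kb of it (90.1%) lay inside peaks. The other 12.59 kb were gaps. This share is of the span that the peaks themselves set, since the ends of the gene array were not placed on release 5. Numbered in order along the arm, peaks 1 and 2 formed a block of 24.6 kb, separated by a gap of 236 bp. Peaks 3 and 4 were weak and lay in the following 9.28 kb, of which 20.5% was inside them. Peaks 5 to 16 formed a second block of 93.5 kb, with 94.7% inside peaks and gaps that summed to 4976 bp.

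**Figure D1:**
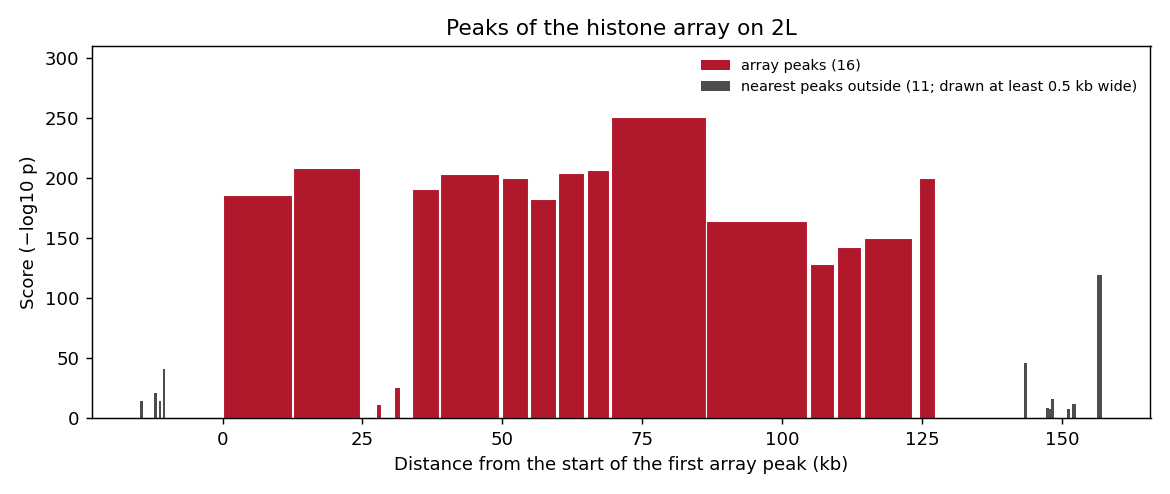
Peaks of the histone array and the nearest peaks outside it. The x axis is the distance in kb from the start of the first array peak, each bar spans 1 peak, and its height is the score (−log10 p). The 14 tall array peaks scored 128.46 to 250.81 and stand nearly edge to edge, with 2 weak array peaks between the blocks.

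The first block consisted of a pair of wide peaks of similar score. Peak 1 (2L:21416353-21428789) was 12437 bp wide and scored 186.16. Peak 2 (2L:21429026-21440938) was 11913 bp wide and scored 207.96. They correspond to 2.49 and 2.38 repeat units of 5000 bp, and the block as a whole to 4.92 units.

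The stretch between the blocks had the 2 lowest scores of the array. Peak 3 (2L:21443801-21444571) was 771 bp wide and scored 11.80. Peak 4 (2L:21446932-21448058) was 1127 bp wide and scored 25.68. The other peaks of 2L had a median score of 14.3. Neither weak peak was among the top 10% of the list, which began at a score of 52.26. The other 14 array peaks were all in that top 10%. No peak had a score between 25.68 and 128.46, so the array peaks fell into 2 weak and 14 strong ones.

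The second block held the widest peaks and the ones closest to a single repeat. Peak 5 (2L:21450215-21455107) was 4893 bp wide and scored 191.08, and peak 6 (2L:21455186-21465795) was 10610 bp wide and scored 203.69. Peaks 7, 8, 9 and 10 started at bases 21466240, 21471283, 21476330 and 21481369. Their widths were 4672, 4606, 4596 and 4018 bp, and their scores were 199.85, 182.35, 204.39 and 206.99. This stretch was thus a series of 4 peaks, each narrower than the repeat unit, with peak 10 the narrowest.

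Peak 11 (2L:21485670-21502698) had the highest score of the array, 250.81, over 17029 bp. Peak 12 (2L:21502754-21520740) was the widest of the array and of 2L, with 17987 bp and a score of 164.16. Only 55 bp separated them, the smallest gap of the array. Peaks 13 and 14, from bases 21521245 and 21526093, had the same width of 4328 bp and scored 128.46 and 142.65. Peak 15 (2L:21530913-21539496) was 8584 bp wide and scored 149.82. Scores of peaks 12 to 15 were the 4 lowest of the 14 strong peaks. Peak 16 (2L:21540842-21543676) ended the array with 2835 bp and a score of 200.26, after a gap of 1345 bp.

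The peaks beside the array were narrow and weaker. The nearest peak before it (2L:21405646-21406104) lay 10248 bp away, was 459 bp wide and scored 40.82. The nearest after it (2L:21559542-21560002) lay 15865 bp away, was 461 bp wide and scored 46.39. Within 50 kb on either side there were 11 peaks, 246 to 895 bp wide, with a median score of 14.0 and a range of 7.73 to 119.64. Each was narrower than each of the 14 strong array peaks, and each scored below all of them.

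The array peaks were set beside the rest of the arm. Their median width was 4639 bp (95% order-statistic interval 4018 to 11913 bp, n = 16), and that of the other 441 peaks of 2L was 404 bp (386 to 444 bp). Their median score was 188.62 (142.65 to 204.39), against 14.3 (13.7 to 15.22). The intervals cover variation among peaks of this list alone, and neighbouring peaks of the array are not independent. High scores also occurred elsewhere on 2L, and 9 other peaks scored above 250.81. Widths of several kb hardly did. Of the other 2L peaks, 1 was as wide as the median array peak or wider.

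**Figure D2:**
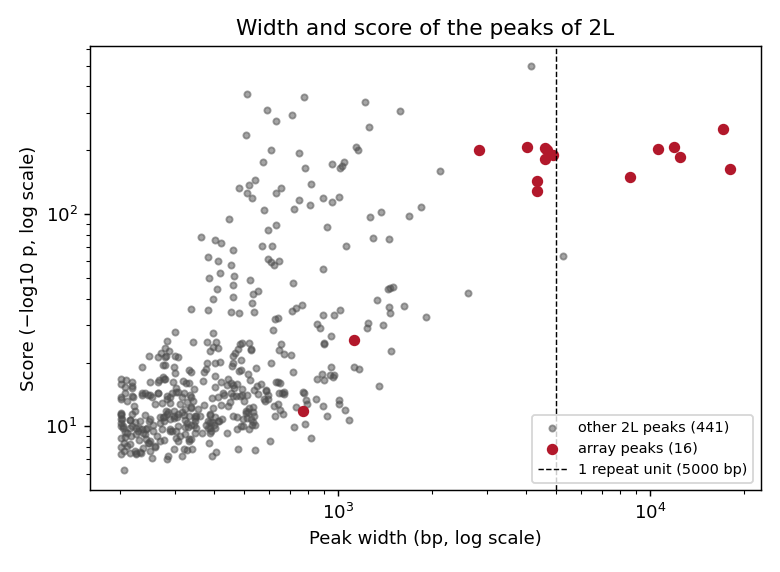
Width (x axis, bp, log scale) and score (y axis, −log10 p, log scale) of the 457 peaks of 2L. The 14 strong array peaks lie at 2835 to 17987 bp, to the right of other 2L peaks with the same scores, which were at most 2114 bp wide.

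In the same range of scores, the strong array peaks had a median width several times that of other 2L peaks. On 2L, 17 other peaks scored between 128.46 and 250.81, the range of the 14 strong array peaks. Their widths ran from 483 to 2114 bp with a median of 783 bp, whereas the strong array peaks ran from 2835 to 17987 bp with a median of 4782.5 bp. On 2L these ranges did not overlap. Equal scores are not known to mean equal enrichment here. The background rate fitted below matched 16 of these 17 other peaks and none of the array peaks. Over all arms, 119 peaks outside the array had scores in that range. The widest of them, on X from base 1988276, was 2985 bp and scored 149.88. It was thus wider than the narrowest strong array peak. The 5 highest other peaks of 2L scored from 310.44 to 498.66, and 4 of them were 511 to 1217 bp wide. The fifth, which was the highest, spanned 4150 bp from base 5000827.

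The array also held most of the very wide peaks of the whole list. Of the 17 peaks of at least 4000 bp on any sequence, 13 were array peaks. The other 4 were a 19741-bp peak on 3L from base 40, with a score of 48.32, the 4150-bp peak of 2L, a 5234-bp peak on 2L from base 29, with a score of 63.87, and a 4085-bp peak on 3L from base 8013017, with a score of 34.03. Those that begin at bases 40 and 29 stand at the very tips of their arms. Of the 4, only the 4150-bp peak had a score within or above the range of the strong array peaks. At a lower bound of 2000 bp, the array held 14 of 36 peaks, against 4 among the other peaks of 2L and 14 on the other 5 arms.

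The array took up 0.553% of the span of 2L peaks and 3.50% of their number, but 33.0% of their bases. Outside it, 232.7 kb lay inside peaks, or 1.02% of the rest of the span. When 2L was cut into 178 tiles of 130 kb, aligned to the window, the array tile was 88.3% inside peaks. The other 177 tiles had a median of 0.375% and a highest value of 8.24%, in a tile 15.08 Mb closer to the start of the arm. In number of peaks, 3 other tiles held at least as many as the array tile, up to 18. Among these was the tile directly after the array tile, with 18 peaks and 7.32% of its bases inside peaks.

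**Figure D3:**
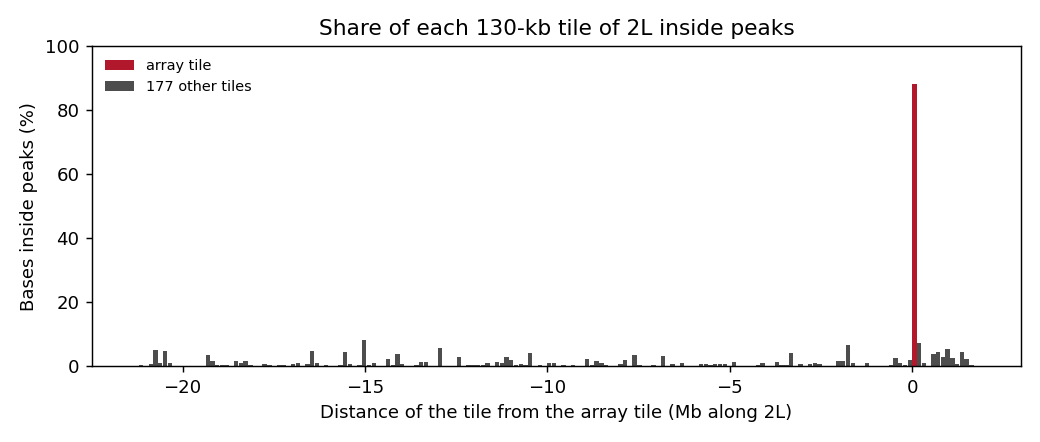
Share of each 130-kb tile of 2L that lies inside peaks (y axis, percent), by distance of the tile from the array tile (x axis, Mb). The array tile reaches 88.3%, and none of the 177 others exceeds 8.24%.

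The peaks were next compared with the repeat unit. Of the 14 strong peaks, 7 were 4000 to 5000 bp wide, or 0.804 to 0.979 units, and in the rest of the list 2 peaks had such a width. Another 4 measured 1.72 to 2.49 units and 2 measured 3.41 to 3.60 units. The remaining strong peak, at the far end of the array, measured 0.567 units. Scores did not order these classes. They were 128.46 to 206.99 for the 7 peaks of 4000 to 5000 bp and 149.82 to 207.96 for the next 4. The 2 widest scored 164.16 and 250.81.

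Part of the array was spaced by the unit. From start to next start, peaks 7, 8 and 9 advanced by 5043, 5047 and 5039 bp, and peak 5 by 4971 bp. Peaks 13 and 14 advanced by 4848 and 4820 bp. These 6 steps lay within 0.05 of 1 unit, and the step of 9929 bp from peak 15 lay within 0.05 of 2 units. In the second block, 7 of 11 steps were near a whole number of units in this sense. The other 4, from peaks 6, 10, 11 and 12, were 11054, 4301, 17084 and 18491 bp. In the first block, the step from peak 1 was 12673 bp, or 2.53 units. The step from peak 2, which leaves that block, was 14775 bp, or 2.955 units, and also counted as near a whole number. Steps from the weak peaks 3 and 4 were 0.63 and 0.66 units. In all, 8 of the 15 array steps were near whole units. Among the 439 steps between other neighbouring peaks of 2L, 2 (0.456%) lay within 0.05 of 1 unit. That share belongs beside the 6 array steps near 1 unit and not beside the 7 of 11. A step is the width of a peak plus the gap after it. These 6 steps therefore largely restate the widths of their peaks, 4328 to 4893 bp. The other peaks of 2L had a median width of 404 bp and a median gap of 3702 bp. The contrast is thus a description and adds no separate evidence of spacing by the unit. For steps near any whole number of units, no share was computed among the other peaks.

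**Figure D4:**
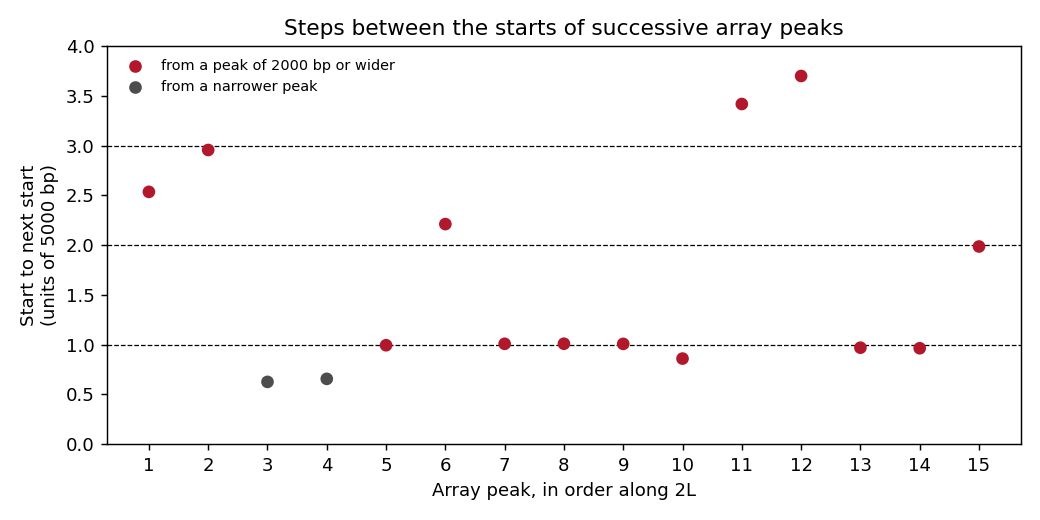
Distance from the start of each array peak to the start of the next (y axis, in units of 5000 bp) for the 15 steps in order along 2L (x axis). Dashed lines mark whole units, and 6 steps lie within 0.05 of 1 unit.

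The gaps of the second block were of several lengths. Those after peaks 7, 8 and 9, which had steps of 5039 to 5047 bp, were 371, 441 and 443 bp. Those after peaks 13 and 14, with steps of 4848 and 4820 bp, were 520 and 492 bp. The gaps after peaks 6 and 12, which come before these stretches, were 444 and 504 bp. Other gaps differed from these: that after peak 5, with a step of 4971 bp, was 78 bp, that after peak 10 was 283 bp, and those after peaks 11 and 15 were 55 and 1345 bp. The repeats of this array are known to come in a longer and a shorter form, and which form lies under which peak was not determined here. As a measure of regularity, the positions of the gap midpoints were taken within a unit of 5000 bp. Their concentration, which is 0 for even spread and 1 when all fall at the same place, was 0.51 over the 15 gaps and 0.75 over the 11 gaps of the second block. Over all periods from 4000 to 6000 bp, the concentration over the 15 gaps was highest at 5020 bp, with 0.51, and reached nearly as high a value, 0.48, at 5380 bp; its median was 0.29. In the second block it was highest at 4990 bp, with 0.75, and had further maxima of 0.64 at 4560 bp and 0.61 at 5400 bp, with a median of 0.32. The scan thus did not single out 1 period over all gaps. The positions of these gaps among His1, His2A, His2B, His3 and His4 could not be read without an annotation of release 5.

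The scores were also compared with a background rate fitted to the list, since the rate used by the caller was not given. A caller of the MACS type scores a peak by the Poisson probability of its pileup of fragments, given a background rate. In its standard form that rate is a genome-wide value, or a local one where the surroundings have more background. The single rate that matched the most scores of this list was 80.0563. This rate reproduced 4578 of 7683 scores (59.6%) to 2 decimals. None of the 16 array scores matched it. Of the other 441 scores of 2L, 230 (52.2%) matched, and of the 17 with scores in the range of the strong array peaks, 16 (94.1%, exact 95% interval 71.3 to 99.9%) did. Because these scores took part in choosing the rate, the interval does not cover that choice. Over all 6 arms outside the array, 104 of 119 peaks in that range matched (87.4%).

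The same held when peaks were set side by side by score. Among peaks scoring 100 to 150, 17 of 17 others on 2L and 57 of 64 on the other arms matched, against 0 of 3 in the array. Among those scoring 150 to 260, 12 of 13 and 70 of 78 matched, against 0 of 11 in the array. At scores of 260 or more, where the array had no peak, matches were fewer: 4 of 8 on 2L and 12 of 31 on the other arms. Wide peaks outside the array were looked at as well. Of the 18 arm peaks outside the array that were at least 2000 bp wide, 5 matched (27.8%), and 3 matched of the 4 among them that scored 100 or more. Of the 4 peaks outside the array that were at least 4000 bp wide, 1 matched. The 4150-bp peak of 2L, the highest of these in score, did not match. Of the 11 peaks within 50 kb of the array, 5 matched. No pileup or fold over background could therefore be derived for the array peaks. Whether their rates were local ones, and what the input libraries held at the array, was not tested, since the list has no value per library.

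**Figure D5:**
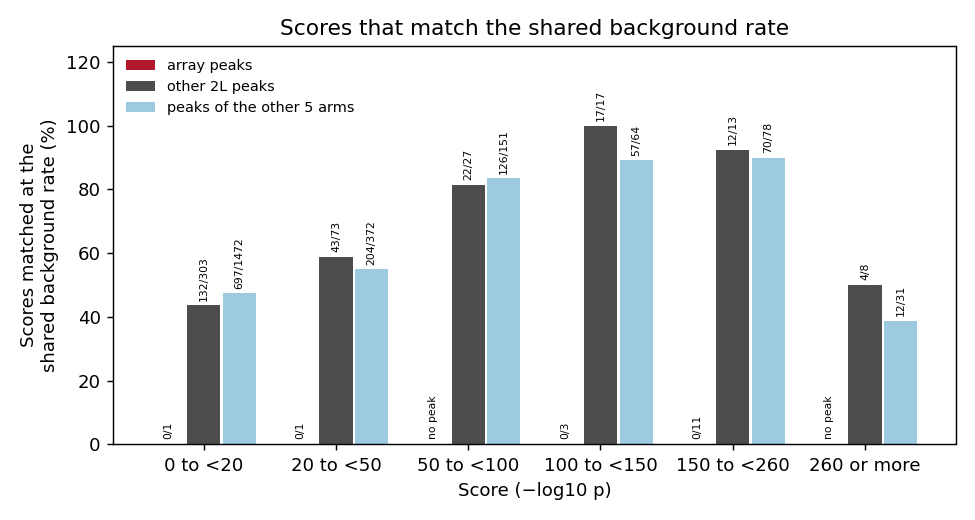
Share of peaks whose score matched the shared background rate of 80.0563 (y axis, percent), by range of score (x axis, −log10 p), for the array, the other peaks of 2L and the peaks of the other 5 arms. The labels give matched peaks of all peaks in the range, and the array has 0 matched in each range in which it has peaks.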

How the data were processed

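The series has 2 GFP immunoprecipitation and 2 input libraries and 1 peak list, which was the file analysed. The submitters' processing notes name MACS2, BWA and CASAVA (versions 1.7.0.2 and 1.7.0.3) and the build BDGP5, without roles or settings. Positions are on FlyBase release 5, per the file headers. The deposited score, read as −log10 p, has no stated unit. Replicate pooling, threshold and depth were not given in the sources used.

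The window, the comparisons and the lists were chosen with earlier results of these data known. Widths, gaps and steps came from the deposited starts and ends. All peaks of the window are described. Outside it, the set to be named was the nearest peaks and the 5 widest and 5 highest of 2L. Not all of these are given by position above. Peaks of at least 4000 bp on any sequence were named as well. So was the widest arm peak in the score range of the strong array peaks. Scores matched when within 0.0051 of a Poisson tail value; rates from 20 to 400 were searched in steps of 0.01, refined to 0.0001. Medians have order-statistic intervals of 95%, for variation among peaks. The rate search, the concentration and the intervals were tested on simulated data. Histone copies came from the RefSeq table of release 6. Python 3.11.15, pandas 2.3.3 and SciPy 1.17.1 were used. Alternatives were other bounds, merging, units, periods, tolerances and comparison sets. No sequence is shown, because no sequence table was used here.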

Additional observations from a re-analysis of the deposited data

How the results depend on the processing

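Of 31 alternative settings, 14 kept the value within its interval or limit and 17 moved it. None has a test. Reversal of a direction was not assessed, because each setting measured a single quantity again. The limits were 1.5 times for numbers of peaks or steps, 1 percentage point for coverage and 0.05 for the concentration. Merging peaks within 1000 and 2000 bp left 5 and 4 array regions, by construction, and a median width of 2835 bp at 1000 bp. Coverage was 88.3% of the whole window, 88.6% with the top 10% of peaks, 94.7% in the second block and 76.0% without the widest peak. The other peaks of 2L had a median width of 709 bp in the top 10% and a median score of 45.24 when at least 1000 bp wide. The concentration of gap midpoints was 0.13 and 0.26 with units of 4800 and 5200 bp, 0.43 for peak ends and 0.75 in the second block. Of 15 start steps, 8 were near whole units of 5000 bp, and 4 with units of 4800 bp and 4 with 5200 bp. With scores matched within 0.02, 1 array peak matched the shared rate. With the rate in steps of 0.01, 29.4% of the other 2L peaks in the range of the strong array peaks matched and no array peak did; the coarser rate misses high scores by construction. The settings for start steps and for matching, and the concentration in the second block alone, were chosen after seeing the data. Leaving out each replicate was not run. No paired analysis was possible because peaks carry no values for single libraries. What depth limits here was not tested.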
